A study of Mus musculus with 12 samples.

Results

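The genes described here are the enzymes and carriers of glycolysis, glycogen metabolism and glucose and lactate transport. They were taken from the table of 46983 annotated genes as the rows whose Ensembl identifier maps to 36 chosen symbols, a rule that uses no expression value. The symbols themselves were chosen with earlier results of these data known. By the tissue each form is known for, 13 of the 36 genes are muscle isozymes, 15 are ubiquitous isozymes or forms of another tissue, and 8 are enzymes without a muscle form encoded by a gene of its own. RNA was sequenced from C2C12, a mouse myoblast cell line that fuses into myotubes in culture. WT cells are labelled wild type, and the study also names them the PB-IP group. The series' own description calls the cells inducible and the controls uninduced, so whether WT cells carry an uninduced insert, a vector or neither cannot be told from these sources. PPARγ/+ cells carry PB-IP, a PiggyBac transposon vector, with the coding sequence of PPARγ, the nuclear receptor that directs fat cell formation, and were selected with puromycin after transfection. The promoter that drives the inserted sequence and the number of clones in each line are not given in the sources used here. Each line was collected on 0d and on 5d of culture, with 3 libraries per group and 12 in all, in the groups WT_0d, WT_5d, PPARγ/+_0d and PPARγ/+_5d. The study calls the libraries biological replicates without saying from which cultures they came, so the p-values measure the spread between these libraries.

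Glycolysis splits glucose into pyruvate, and glycogen is the branched store of glucose that muscle breaks down when it contracts. Several steps have a form that skeletal muscle makes in place of the ubiquitous one, such as PYGM for glycogen phosphorylase, PGAM2 for phosphoglycerate mutase, PFKM for phosphofructokinase and ENO3 for enolase. When myoblasts leave the cell cycle and differentiate, the muscle forms are switched on together with contractile proteins, partly through E-boxes, the short DNA motif that myogenic factors such as MYOD1 and myogenin bind. Loss of PYGM, PFKM or PGAM2 in humans causes muscle glycogen storage diseases.

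Values are FPKM, fragment numbers scaled to transcript length and library depth, so levels can be compared between genes per length. Each library held between 15557874 and 22013295 fragments on genes. *Pparg* lay between 3.12 and 7.56 FPKM in the 6 WT libraries and between 28.0 and 92.7 FPKM in the 6 PPARγ/+ libraries, which holds to the labels in every library. Of the 15 genes listed as myotube markers 14 could be tested, and all 14 rose from 0d to 5d in both cell types. Their summed level was 7169, 5254 and 1500.2 FPKM in the WT_5d libraries and 1423, 1607 and 1665 FPKM in PPARγ/+_5d. The third WT_5d library therefore stood beside the PPARγ/+_5d libraries rather than beside its own group. It was the lowest WT_5d library for 14 of 14 tested myotube markers, for 10 of 12 tested muscle isozymes and for 23 of 34 tested members. Its mean correlation over all genes tested was 0.972 with the PPARγ/+_5d libraries and 0.965 with the other WT_5d libraries. Counts and class medians that rest on WT_5d, and the values of the isozymes that it moved, are therefore given with and without that library, called WT_5d replicate 3. It was singled out by values of these same genes as well as others, so results without it are descriptions and no independent support. On 0d the summed myotube markers were 25.9, 165 and 16.5 FPKM in WT and 10.7, 20.1 and 34.4 FPKM in PPARγ/+, so WT_0d replicate 2 stood above the rest. Adipocyte markers summed to between 13.4 and 21.3 FPKM in WT libraries and to 63.3, 72.9 and 154 FPKM in PPARγ/+_5d, with the adipocyte markers *Lep* at 0 in all libraries and *Adipoq* at 8.03, 12.7 and 40.5 FPKM in PPARγ/+_5d. In RNA of a whole culture, fewer myotubes and less transcript per myotube cannot be told apart.

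The 250 bases before the transcription start are shown for 2 muscle isozymes that the results turn on and for their ubiquitous partners. Capitals mark E-boxes, CANNTG on either strand. Sequences are those of RefSeq for GRCm38.p6, read 5′ to 3′ along the strand of the gene. The windows lie at chr19:6384158-6384407 on the plus strand for *Pygm*, at chr2:150786546-150786795 on the plus strand for *Pygb*, at chr11:5803797-5804046 on the minus strand for *Pgam2* and at chr19:41911621-41911870 on the plus strand for *Pgam1*.
Pygm: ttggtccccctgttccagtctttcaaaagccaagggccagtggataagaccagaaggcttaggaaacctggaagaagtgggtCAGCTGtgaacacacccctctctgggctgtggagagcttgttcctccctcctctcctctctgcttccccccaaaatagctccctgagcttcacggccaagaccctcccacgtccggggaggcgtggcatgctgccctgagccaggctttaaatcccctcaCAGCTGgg
Pygb: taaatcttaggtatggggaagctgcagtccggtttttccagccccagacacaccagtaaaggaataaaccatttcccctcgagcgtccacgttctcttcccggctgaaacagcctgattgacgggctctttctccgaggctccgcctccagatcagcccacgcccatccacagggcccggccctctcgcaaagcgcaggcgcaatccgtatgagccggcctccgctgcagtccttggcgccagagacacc
Pgam2: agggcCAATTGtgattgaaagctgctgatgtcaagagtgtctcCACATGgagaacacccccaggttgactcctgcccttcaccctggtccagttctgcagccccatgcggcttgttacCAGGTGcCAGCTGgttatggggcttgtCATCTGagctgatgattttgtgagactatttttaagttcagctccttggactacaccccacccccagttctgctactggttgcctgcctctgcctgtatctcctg
Pgam1: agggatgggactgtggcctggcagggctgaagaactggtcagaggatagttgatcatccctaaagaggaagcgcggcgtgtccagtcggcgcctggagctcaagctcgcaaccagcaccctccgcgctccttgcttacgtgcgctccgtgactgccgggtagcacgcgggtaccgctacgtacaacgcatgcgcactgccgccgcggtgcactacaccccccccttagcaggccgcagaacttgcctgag
The *Pygm* window held 2 E-boxes and the *Pgam2* window 5, while those of *Pygb* and *Pgam1* held 0. Both *Pygm* E-boxes and 1 of those before *Pgam2* read CAGCTG, the form that MYOD1 and myogenin prefer, and the *Pgam2* window also held a MEF2 motif.

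Promoter windows were found for 34 of the 36 members, with 50 starts, since a gene can have several. CANNTG, searched on both strands of the 250 bases, occurred before 83.3% of the 18 starts of muscle isozymes, 80.0% of the 10 starts of single-form enzymes, 54.5% of the 22 starts of ubiquitous isozymes and 66.2% of all 32851 starts. CAGCTG, which is 1 case of CANNTG, occurred before 27.8%, 30.0%, 4.55% and 13.0% of these starts, so the single-form enzymes held both about as often as the muscle isozymes. ACGTG, the core that hypoxia-inducible factors bind, occurred before 9 of the 18 muscle starts, 3 of the 10 single-form starts, 31.8% of the ubiquitous ones and before 16.6% of all starts. AGGTCA, a site recognised by nuclear receptors such as PPARγ, occurred before 22.2% of muscle, 1 of the 10 single-form and 18.2% of ubiquitous starts and before 14.0% of all starts. The MEF2 motif occurred before 1 muscle start, 0 single-form starts and 1 ubiquitous start, and before 2.92% of all starts. A match is a description of these letters and not a measured binding site.

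The first comparison asked how these genes changed over 5 days in WT cells. Muscle glycogen phosphorylase *Pygm*, muscle phosphoglycerate mutase *Pgam2* and muscle phosphofructokinase *Pfkm* rose 22.1-fold, 8.73-fold and 2.90-fold, while the ubiquitous forms of the same enzymes and most of the shared glycolytic enzymes lay lower on 5d. A gene was called when the p-value of limma was at most 0.05 and the fold change at least 2. Of the 36 members 34 passed the filter of 0.1 FPKM in at least 3 libraries, and 5 of these, 14.7%, were called higher and 1, 2.94%, lower, against 8.94% and 7.53% of the 18023 genes tested. The genes called higher were *Pfkm*, *Aldoc*, *Pgam2*, *Pygm* and *Slc2a3*, and the gene called lower was *Pfkfb1*. Without the fold limit 11 members were higher and 13 lower, 32.4% and 38.2%, against 18.5% and 28.3% of all genes. The median log2 change was 0.46 over the 12 tested muscle isozymes, -0.36 over 14 ubiquitous isozymes and -0.35 over 8 single-form enzymes, and -0.08 over all genes. Without WT_5d replicate 3 these 3 medians were 0.72, -0.36 and -0.24, and 6 members were called higher and 1 lower, 17.6% and 2.94%. The share of all genes called in that fit is not given here. That library was singled out partly for its low muscle isozymes, so these values are no independent support.

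In PPARγ/+ cells, *Pygm* and *Pgam2* rose as well, 7.48-fold and 2.33-fold, and *Phkg1*, the catalytic subunit of muscle phosphorylase kinase, rose 3.19-fold on the log2(FPKM + 0.1) scale, having passed the filter only through its 5d libraries. The called members were 4 higher, 11.8% of those tested against 9.11% of all genes, and 2 lower, 5.88% against 6.06%. Higher were *Pgam2*, *Pygm*, *Phkg1* and *Slc2a3*, and lower were *Pfkfb1* and *Pgk1*. Without the fold limit 11 members were higher and 15 lower, 32.4% and 44.1%, against 21.7% and 32.7% of all genes. The medians were 0.15 for muscle isozymes, -0.18 for ubiquitous isozymes, -0.50 for single-form enzymes and -0.10 for all genes.

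**Figure D1:**
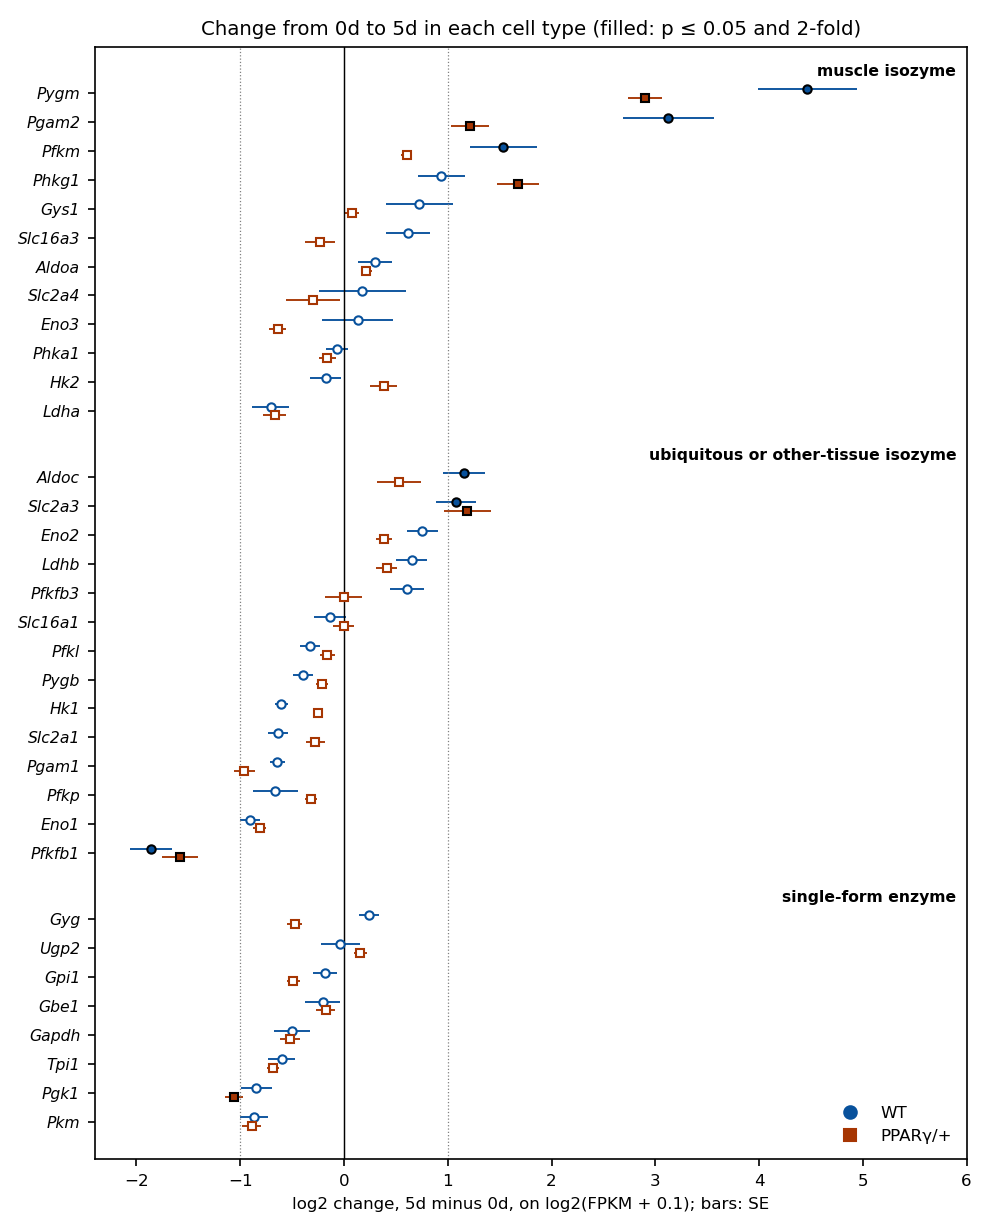
Log2 change from 0d to 5d (x axis, on log2(FPKM + 0.1), bars SE) of the 34 tested members (y axis) by class, in WT (circles) and PPARγ/+ cells (squares); filled symbols were called by limma. *Pygm* and *Pgam2* lie furthest to the right in WT, and the single-form enzymes other than *Gyg* lie at or below 0 in WT.

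Glucose enters cells through facilitative carriers, of which GLUT1, encoded by *Slc2a1*, is the common form and GLUT4, encoded by *Slc2a4*, the insulin-regulated form of muscle and fat. *Slc2a1* was measured at 31.6, 28.1 and 26.02 FPKM in the WT_0d libraries, 17.5, 18.1 and 19.3 FPKM in WT_5d, 18.1, 21.1 and 21.3 FPKM in PPARγ/+_0d and 15.5, 16.1 and 18.3 FPKM in PPARγ/+_5d. It was lower on 5d in both cell types, with no overlap between the days in WT and a log2 change of -0.63 ± 0.09 in WT and -0.28 ± 0.09 in PPARγ/+. *Slc2a3*, which encodes the high-affinity carrier GLUT3 of neurons, lay far lower, at 0.235, 0.290 and 0.280 FPKM in the WT_0d libraries, 0.726, 0.722 and 0.594 FPKM in WT_5d, 0.204, 0.265 and 0.228 FPKM in PPARγ/+_0d and 0.885, 0.571 and 0.550 FPKM in PPARγ/+_5d. Every 5d library lay above every 0d library of its cell type, and the gene was called in both, with log2 changes of 1.08 ± 0.19 (limma adjusted p = 0.00682) and 1.19 ± 0.23 (adjusted p = 0.00497). At this low level a pseudocount of 1 in place of 0.1 gave 0.41 and 0.43, under 2-fold, and so did quantile normalization in WT, at 0.95, and the omission of PPARγ/+_5d replicate 1 in PPARγ/+, at 0.996. *Slc2a4* was close to the limit of detection, at 0.119, 0.171 and 0.0993 FPKM in the WT_0d libraries, 0.248, 0.253 and 0.0379 FPKM in WT_5d, 0.0707, 0.0551 and 0.145 FPKM in PPARγ/+_0d and 0.0555, 0.0535 and 0.0464 FPKM in PPARγ/+_5d. The WT_5d libraries held 22, 17 and 3 fragments of it and the PPARγ/+_5d libraries 4, 4 and 3, so WT_5d replicate 3 lay with PPARγ/+.

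Lactate leaves and enters through monocarboxylate carriers, MCT1 (*Slc16a1*) being the general one and MCT4 (*Slc16a3*) the exporter of glycolytic muscle. *Slc16a1* was measured at 18.3, 21.1 and 21.1 FPKM in the WT_0d libraries, 16.2, 16.3 and 23.2 FPKM in WT_5d, 18.6, 14.3 and 14.9 FPKM in PPARγ/+_0d and 15.5, 16.2 and 15.7 FPKM in PPARγ/+_5d. The groups overlapped between days, and its log2 changes of -0.14 ± 0.16 and 0.00 ± 0.10 did not pass the test. *Slc16a3* was measured at 4.06, 5.77 and 4.69 FPKM in the WT_0d libraries, 7.81, 9.17 and 5.66 FPKM in WT_5d, 4.80, 4.11 and 4.92 FPKM in PPARγ/+_0d and 4.15, 4.49 and 3.18 FPKM in PPARγ/+_5d. The first and second WT_5d libraries were the highest of the 12, and WT_5d replicate 3 lay among the WT_0d libraries. Its log2 change was 0.62 ± 0.21 in WT (adjusted p = 0.0603 in limma, under 2-fold) and -0.23 ± 0.14 in PPARγ/+ (adjusted p = 0.236).

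Hexokinase traps glucose in the cell as its phosphate, HK1 being the form of most tissues and HK2 the form of muscle and fat. *Hk1* was measured at 31.9, 31.3 and 33.4 FPKM in the WT_0d libraries, 20.9, 21.8 and 20.7 FPKM in WT_5d, 23.9, 24.8 and 24.9 FPKM in PPARγ/+_0d and 20.3, 20.1 and 21.4 FPKM in PPARγ/+_5d. It was lower on 5d, without overlap between days in either cell type, with changes of -0.60 ± 0.06 and -0.25 ± 0.05 on the log2 scale. *Hk2* (ENSMUSG00000000628, chr6:82725025-82774454, minus strand, GRCm38) was measured at 7.96, 8.37 and 7.74 FPKM in the WT_0d libraries, 8.73, 6.99 and 5.82 FPKM in WT_5d, 3.93, 3.33 and 4.16 FPKM in PPARγ/+_0d and 5.25, 5.55 and 4.22 FPKM in PPARγ/+_5d. All 3 PPARγ/+_0d libraries lay below all 3 WT_0d libraries, and the PPARγ/+ libraries lay below the WT libraries on 5d as well. Its change from 0d to 5d was -0.18 ± 0.15 in WT and 0.38 ± 0.13 in PPARγ/+, both under 2-fold. *Gpi1*, whose product turns glucose phosphate into fructose phosphate, had log2 changes of -0.18 ± 0.12 and -0.49 ± 0.06, the second at an adjusted p of 0.000918 in limma and under 2-fold.

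Phosphofructokinase makes the committed step of glycolysis and is built from muscle, liver and platelet subunits. The muscle subunit *Pfkm* (ENSMUSG00000033065, chr15:98092589-98132451, plus strand) was measured at 26.5, 25.9 and 33.2 FPKM in the WT_0d libraries, 115, 101 and 48.3 FPKM in WT_5d, 32.3, 31.3 and 29.04 FPKM in PPARγ/+_0d and 46.5, 46.6 and 47.7 FPKM in PPARγ/+_5d. The first and second WT_5d libraries lay far above the other 10, and WT_5d replicate 3 lay next to PPARγ/+_5d. The log2 change was 1.54 ± 0.33 in WT (adjusted p = 0.0122), 1.92 ± 0.14 without WT_5d replicate 3, and 0.60 ± 0.05 in PPARγ/+ (adjusted p = 0.000230), where it stayed under 2-fold. The liver subunit *Pfkl* was measured at 31.95, 35.2 and 30.5 FPKM in the WT_0d libraries, 26.8, 27.7 and 23.4 FPKM in WT_5d, 23.1, 23.7 and 26.6 FPKM in PPARγ/+_0d and 21.3, 21.2 and 23.1 FPKM in PPARγ/+_5d, lower on 5d in WT with a log2 change of -0.33 ± 0.10. The platelet subunit *Pfkp* was the least abundant, at 8.16, 9.72 and 8.83 FPKM in the WT_0d libraries, 7.10, 6.14 and 3.99 FPKM in WT_5d, 6.02, 5.99 and 6.13 FPKM in PPARγ/+_0d and 4.81, 4.79 and 4.91 FPKM in PPARγ/+_5d, and lay lower on 5d with log2 changes of -0.66 ± 0.21 in WT and -0.32 ± 0.06 in PPARγ/+. Of the exonic bases of *Pfkp*, 5.58% overlap *Pitrm1*, a gene on the opposite strand at a mean of 30.4 FPKM.

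The bifunctional enzymes that set the level of the fructose bisphosphate that activates phosphofructokinase differed in direction. *Pfkfb1*, the form best known from liver, was measured at 1.23, 1.16 and 1.60 FPKM in the WT_0d libraries, 0.332, 0.284 and 0.262 FPKM in WT_5d, 1.296, 1.14 and 1.13 FPKM in PPARγ/+_0d and 0.264, 0.370 and 0.362 FPKM in PPARγ/+_5d. Every 5d library lay below every 0d library, a 3.63-fold decrease in WT (log2 change -1.86 ± 0.20, adjusted p = 0.00113 in limma) and a 2.99-fold decrease in PPARγ/+ (-1.58 ± 0.17, adjusted p = 0.000486). With a pseudocount of 1 these changes were -0.85 and -0.72, under 2-fold. Several starts are annotated for *Pfkfb1*, and values per gene cannot tell their transcripts apart. *Pfkfb3*, the inducible form of dividing cells, was measured at 1.36, 0.975 and 1.19 FPKM in the WT_0d libraries, 1.87, 1.78 and 1.84 FPKM in WT_5d, 1.52, 1.24 and 1.17 FPKM in PPARγ/+_0d and 1.34, 1.53 and 1.07 FPKM in PPARγ/+_5d, and its change of 0.61 ± 0.16 in WT stayed under 2-fold against 0.00 ± 0.17 in PPARγ/+. *Fbp2*, the muscle form of the opposing phosphatase, was under the filter, with at most 2 fragments in any library.

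Aldolase cleaves the bisphosphorylated sugar, and aldolase A, encoded by *Aldoa*, is the form of muscle and red cells. *Aldoa* was measured at 208, 209.7 and 206 FPKM in the WT_0d libraries, 299, 283 and 199 FPKM in WT_5d, 166, 174 and 170.4 FPKM in PPARγ/+_0d and 191, 204 and 197 FPKM in PPARγ/+_5d. In WT the 5d libraries fell on both sides of the 0d libraries with WT_5d replicate 3 below them, and in PPARγ/+ each 5d library lay above each 0d library. The brain form *Aldoc* lay at 0.269, 0.328 and 0.357 FPKM in the WT_0d libraries, 0.770, 0.762 and 0.969 FPKM in WT_5d, 0.239, 0.317 and 0.239 FPKM in PPARγ/+_0d and 0.502, 0.456 and 0.330 FPKM in PPARγ/+_5d. *Aldoc* was called higher in WT, by 1.16 ± 0.20 on the log2 scale (limma adjusted p = 0.00602), from between 17 and 27 fragments per library on 0d. With a pseudocount of 1 this change was 0.48, under 2-fold. *Aldoa* had log2 changes of 0.30 ± 0.16 in WT and 0.22 ± 0.06 in PPARγ/+, and of 0.48 ± 0.08 in WT without WT_5d replicate 3.

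Triose phosphate isomerase, glyceraldehyde phosphate dehydrogenase, phosphoglycerate kinase and pyruvate kinase have no muscle form encoded by a separate gene, and all 4 lay lower on 5d. The muscle and general forms of pyruvate kinase are spliced from *Pkm*, and values per gene cannot tell them apart. *Pkm*, the most abundant member, was measured at 959, 997 and 1129.6 FPKM in the WT_0d libraries, 588, 546 and 556 FPKM in WT_5d, 954, 925 and 859 FPKM in PPARγ/+_0d and 456, 501 and 522 FPKM in PPARγ/+_5d. Each 5d library lay below each 0d library, with log2 changes of -0.86 ± 0.13 in WT and -0.89 ± 0.09 in PPARγ/+ and adjusted p-values of 0.00372 and 0.000372 in limma. *Pgk1*, phosphoglycerate kinase, was measured at 211, 227 and 223 FPKM in the WT_0d libraries, 145, 129 and 98.5 FPKM in WT_5d, 217, 179 and 191 FPKM in PPARγ/+_0d and 99.04, 93.9 and 88.4 FPKM in PPARγ/+_5d, and its log2 change of -0.84 ± 0.15 in WT stayed under 2-fold while that of -1.06 ± 0.09 in PPARγ/+ passed it (adjusted p = 0.000157), though not with median-ratio scaling, quantile normalization or without PPARγ/+_0d replicate 1. Triose phosphate isomerase *Tpi1* had log2 changes of -0.60 ± 0.13 and -0.69 ± 0.06, and *Gapdh*, which makes the NADH of glycolysis, of -0.50 ± 0.17 and -0.52 ± 0.09. *Gapdh* has 78 other annotated genes that match it at 95% identity or more over at least 200 bases, and 1 of them, *Gm13394*, was listed at a mean of 311 FPKM beside 385 FPKM for *Gapdh* itself. How the fragments of such copies were divided is not given in the sources used here, so the *Gapdh* level is uncertain. For *Pkm*, *Tpi1* and *Pgk1*, the matching genes summed to between 0.116% and 1.05% of the level of the member.

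Phosphoglycerate mutase moves the phosphate group within the triose chain. Its muscle form *Pgam2* (ENSMUSG00000020475, chr11:5801640-5803733, minus strand) was measured at 3.01, 2.93 and 2.37 FPKM in the WT_0d libraries, 40.8, 31.2 and 11.97 FPKM in WT_5d, 3.07, 4.43 and 5.23 FPKM in PPARγ/+_0d and 9.36, 10.4 and 9.67 FPKM in PPARγ/+_5d. Every 5d library lay above every 0d library of its cell type, WT_5d replicate 3 lay lowest in its group, and no PPARγ/+_5d library reached it. The log2 change was 3.13 ± 0.44 in WT (adjusted p = 0.00270 in limma), 3.65 ± 0.17 without WT_5d replicate 3, and 1.22 ± 0.18 in PPARγ/+ (adjusted p = 0.00183). The ubiquitous form *Pgam1* was measured at 117, 127 and 119.6 FPKM in the WT_0d libraries, 78.2, 79.3 and 75.2 FPKM in WT_5d, 147, 115 and 119 FPKM in PPARγ/+_0d and 64.2, 68.6 and 61.7 FPKM in PPARγ/+_5d. It remained the more abundant form in every library and was lower on 5d with log2 changes of -0.64 ± 0.07 in WT and -0.96 ± 0.10 in PPARγ/+, both under 2-fold.

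Enolase differed from this pattern, because the muscle form *Eno3* (ENSMUSG00000060600, chr11:70657202-70662513, plus strand) was already abundant on 0d, at 137, 146 and 187 FPKM in the WT_0d libraries, 238, 211 and 98.1 FPKM in WT_5d, 148, 133 and 121 FPKM in PPARγ/+_0d and 82.5, 87.7 and 87.3 FPKM in PPARγ/+_5d. In WT the first and second 5d libraries lay above all 0d libraries and WT_5d replicate 3 below them, so the log2 change of 0.13 ± 0.34 did not pass the test, and it was 0.53 ± 0.16 without that library. In PPARγ/+ every 5d library lay below every 0d library, with a change of -0.64 ± 0.08 (adjusted p = 0.000871 in limma, under 2-fold). The ubiquitous form *Eno1* was measured at 204, 233 and 224 FPKM in the WT_0d libraries, 122, 122 and 109 FPKM in WT_5d, 182, 163 and 167 FPKM in PPARγ/+_0d and 95.4, 98.8 and 96.6 FPKM in PPARγ/+_5d, lower on 5d with log2 changes of -0.91 ± 0.09 in WT and -0.81 ± 0.06 in PPARγ/+. It has 3 near-identical genes that summed to a mean of 162 FPKM against 151 FPKM for *Eno1* itself, the highest being *Eno1b* at 86.5 FPKM, so the level of *Eno1* is uncertain. The neuronal form *Eno2* lay at 7.40, 9.16 and 8.80 FPKM in the WT_0d libraries, 12.2, 13.96 and 17.2 FPKM in WT_5d, 10.1, 9.15 and 9.57 FPKM in PPARγ/+_0d and 13.2, 13.05 and 11.6 FPKM in PPARγ/+_5d and was higher on 5d by 0.76 ± 0.15 and 0.39 ± 0.07, both under 2-fold.

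Lactate dehydrogenase, which returns pyruvate to lactate, was mostly the A subunit that glycolytic muscle uses. *Ldha* was measured at 226, 268 and 288 FPKM in the WT_0d libraries, 192, 166 and 126 FPKM in WT_5d, 252, 196 and 206 FPKM in PPARγ/+_0d and 127, 135 and 147 FPKM in PPARγ/+_5d. Each 5d library lay below each 0d library, with log2 changes of -0.71 ± 0.18 in WT and -0.67 ± 0.11 in PPARγ/+, both under 2-fold. The heart subunit *Ldhb* was measured at 3.74, 3.18 and 2.72 FPKM in the WT_0d libraries, 5.23, 4.49 and 5.56 FPKM in WT_5d, 3.002, 3.35 and 3.09 FPKM in PPARγ/+_0d and 4.76, 3.94 and 4.01 FPKM in PPARγ/+_5d, with changes of 0.65 ± 0.15 and 0.41 ± 0.10, and every 5d library lay above every 0d library.

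Glycogen breakdown gave the largest change among the members. Phosphorylase releases glucose phosphate from glycogen, and the muscle form *Pygm* (ENSMUSG00000032648, chr19:6384399-6398459, plus strand) was measured at 0.817, 0.973 and 0.577 FPKM in the WT_0d libraries, 31.1, 25.6 and 8.84 FPKM in WT_5d, 0.624, 0.834 and 0.840 FPKM in PPARγ/+_0d and 6.91, 6.95 and 5.28 FPKM in PPARγ/+_5d. The 0d levels of both cell types overlapped, and each 5d library lay above each 0d library, with WT_5d replicate 3 between its group and PPARγ/+_5d. The log2 change was 4.46 ± 0.48 in WT (limma adjusted p = 0.00106), 5.02 ± 0.23 without WT_5d replicate 3, and 2.90 ± 0.16 in PPARγ/+ (adjusted p = 4.27e-05). With a pseudocount of 1 the changes were 3.51 and 2.06, still called. The brain form *Pygb*, which many cells use, was measured at 16.01, 14.4 and 15.7 FPKM in the WT_0d libraries, 11.005, 11.002 and 13.03 FPKM in WT_5d, 13.6, 15.4 and 14.5 FPKM in PPARγ/+_0d and 12.6, 12.6 and 12.3 FPKM in PPARγ/+_5d, and was lower on 5d with log2 changes of -0.40 ± 0.10 and -0.21 ± 0.06, both under 2-fold. The liver form *Pygl* was under the filter, with at most 3 fragments in any library.

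Phosphorylase kinase, which switches phosphorylase on, is represented among the members by its muscle subunits. The regulatory subunit *Phka1* ranged between 4.68 and 6.09 FPKM in the 12 libraries, with changes of -0.07 ± 0.10 and -0.16 ± 0.08 that did not pass the test. The catalytic subunit *Phkg1* (ENSMUSG00000025537, chr5:129863421-129898549, minus strand) was measured at 0.0396, 0.0609 and 0.0332 FPKM in the WT_0d libraries, 0.157, 0.159 and 0.216 FPKM in WT_5d, 0.0755, 0.0884 and 0.0633 FPKM in PPARγ/+_0d and 0.452, 0.393 and 0.546 FPKM in PPARγ/+_5d. The PPARγ/+_5d libraries were the highest and the WT_5d libraries came next, without overlap. The change was 1.67 ± 0.20 in PPARγ/+ (adjusted p = 0.000764 in limma) and 0.94 ± 0.22 in WT, the second under 2-fold. All 6 libraries of 0d lay below the filter of 0.1 FPKM, so *Phkg1* was tested only because it was higher on 5d, and its call is no independent support. Its PPARγ/+ value was 2.46 with a pseudocount of 0.01 and 0.44, under 2-fold, with a pseudocount of 1. These values rest on 61, 55 and 66 fragments in PPARγ/+_5d and 26, 20 and 32 in WT_5d, and 9.68% of the exonic bases of *Phkg1* overlap *Sumf2*, a gene on the opposite strand at a mean of 11.5 FPKM. The library kit named in the labels does not mark strand, so fragments of the 2 genes cannot be told apart there. Outside the members, the catalytic subunit *Phkg2* lay between 2.22 and 4.10 FPKM in the 12 libraries, above *Phkg1* in each. The regulatory subunit *Phka2* lay between 5.71 and 10.9 FPKM.

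The genes of glycogen synthesis gave 0 calls in either cell type. Glycogen synthase *Gys1*, which elongates the chains, was measured at 11.4, 10.8 and 11.8 FPKM in the WT_0d libraries, 26.4, 23.2 and 10.8 FPKM in WT_5d, 11.1, 11.6 and 11.9 FPKM in PPARγ/+_0d and 11.4, 11.7 and 13.4 FPKM in PPARγ/+_5d. The first and second WT_5d libraries lay far above all others, WT_5d replicate 3 was among the lowest, and 6.47% of the exonic bases of *Gys1* overlap *Ruvbl2* on the opposite strand. Its change was 0.72 ± 0.32 in WT (adjusted p = 0.128 in limma), 1.12 ± 0.09 without WT_5d replicate 3 (adjusted p = 0.00122) and 0.07 ± 0.08 in PPARγ/+. Glycogenin *Gyg* (ENSMUSG00000019528, chr3:20122084-20155317, minus strand), the protein on which a glycogen particle starts, was measured at 25.1, 20.3 and 21.96 FPKM in the WT_0d libraries, 25.7, 25.8 and 27.9 FPKM in WT_5d, 33.4, 30.1 and 27.8 FPKM in PPARγ/+_0d and 22.03, 22.2 and 21.4 FPKM in PPARγ/+_5d. On 0d every PPARγ/+ library lay above every WT library, on 5d every PPARγ/+ library lay below every WT library, and PPARγ/+_5d overlapped WT_0d. *Gbe1*, the branching enzyme, ranged between 2.37 and 4.02 FPKM with changes of -0.20 ± 0.17 and -0.17 ± 0.09, and *Ugp2*, which supplies UDP-glucose, between 14.9 and 24.9 FPKM with changes of -0.03 ± 0.19 and 0.16 ± 0.06.

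**Figure D2:**
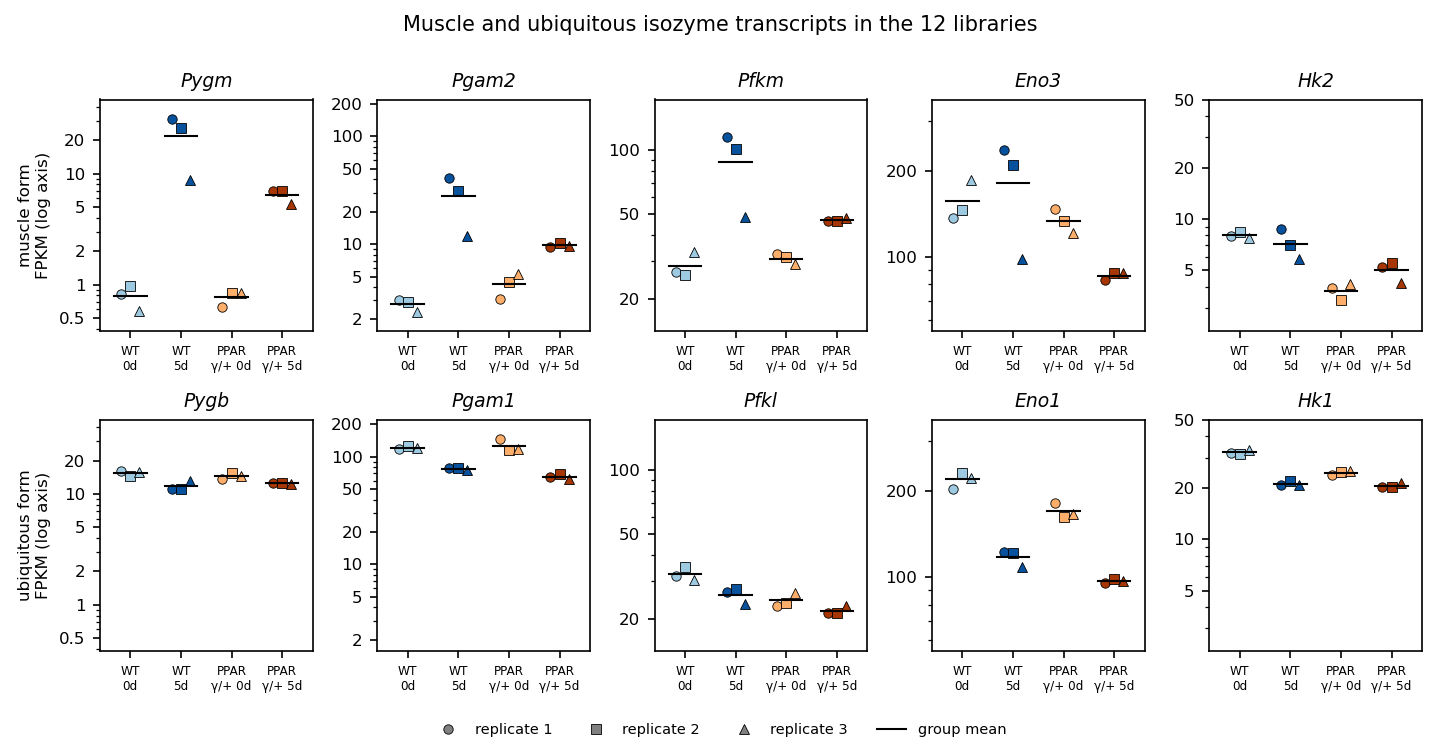
FPKM (log y axis, shared within each column) of 5 muscle isozymes (top) and a ubiquitous partner of each (bottom) in the 4 groups; symbols are the 3 replicates and lines the group means. *Pygm*, *Pgam2* and *Pfkm* are highest in the first and second WT_5d libraries, and WT_5d replicate 3 lies near PPARγ/+_5d, while the partners lie at or below their 0d levels on 5d.

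The share of the muscle form in the summed FPKM of its family compares isozymes within a library, where library scaling cancels. The family counted as changed when the 3 libraries of one group lay all above or all below the 3 of the other. *Aldoa* and *Ldha* already held 98.3% or more of their families in every 0d library, which left little room for a larger share. The *Slc2a4* share rests on 22 fragments or fewer of that gene in every library. From 0d to 5d the muscle form took a larger share in 4 of 9 families in WT and in 4 of 9 in PPARγ/+, in both cases those of *Pygm*, *Pgam2*, *Pfkm* and *Hk2*. An exact two-sided permutation test of 3 against 3 libraries cannot give a p-value under 0.1, and each of these families gave that value, which is 0.15 in WT and 0.18 in PPARγ/+ after Benjamini-Hochberg adjustment over the 9 families.

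The share of *Pygm* in glycogen phosphorylase was 4.84, 6.34 and 3.54% in WT_0d and 73.9, 69.9 and 40.4% in WT_5d, so the muscle form became the major one in the first and second libraries and not in WT_5d replicate 3. In PPARγ/+ it was 4.37, 5.13 and 5.45% on 0d and 35.4, 35.5 and 29.95% on 5d. The mean difference between days was 56.5 percentage points in WT, 66.97 without WT_5d replicate 3, and 28.7 in PPARγ/+. *Pgam2* reached a smaller part of its family, from 2.51, 2.26 and 1.94% in WT_0d to 34.3, 28.2 and 13.7% in WT_5d. Its share went from 2.05, 3.72 and 4.22% to 12.7, 13.1 and 13.5% in PPARγ/+, where *Pgam1* stayed the main form. *Pfkm* held 39.8, 36.5 and 45.7% in WT_0d and 77.3, 74.8 and 63.8% in WT_5d. In PPARγ/+ it held 52.6, 51.3 and 47.02% on 0d, above all WT_0d libraries, and 64.00, 64.2 and 63.03% on 5d.

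*Hk2* took 19.98, 21.1 and 18.8% of hexokinase in WT_0d and 29.5, 24.3 and 21.9% in WT_5d, a difference of 5.26 percentage points. In PPARγ/+ it took 14.1, 11.8 and 14.3% on 0d and 20.6, 21.6 and 16.5% on 5d, a difference of 6.14 points, so both cell types moved the same way from different starting shares. This difference in WT goes with a lower level of *Hk1* and not with a higher one of *Hk2*, whose FPKM overlapped between days in WT. *Eno3* held 39.3, 37.6 and 44.5% of enolase in WT_0d, 63.96, 60.8 and 43.8% in WT_5d, 43.5, 43.6 and 40.8% in PPARγ/+_0d and 43.2, 43.96 and 44.7% in PPARγ/+_5d. Only the first and second WT_5d libraries left that range, and counting *Eno1b* in the family lowered the shares to between 28.1% and 54.0% with the same 2 libraries on top.

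The other families gave no larger share on 5d. *Ldha* stayed above 95% of its family in all libraries and its share was lower on 5d in both cell types, with differences of -1.93 and -1.58 percentage points. *Aldoa* stayed above 99.5% of its family. *Slc16a3* took 32.5, 36.02 and 19.6% of its pair in WT_5d and 21.1, 21.7 and 16.8% in PPARγ/+_5d, and *Slc2a4* 1.34% or less of the glucose carriers in every library. Without WT_5d replicate 3, the number of families with a larger share on 5d in WT was 7 in place of 4, with *Eno3*, *Slc2a4* and *Slc16a3* added.

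**Figure D3:**
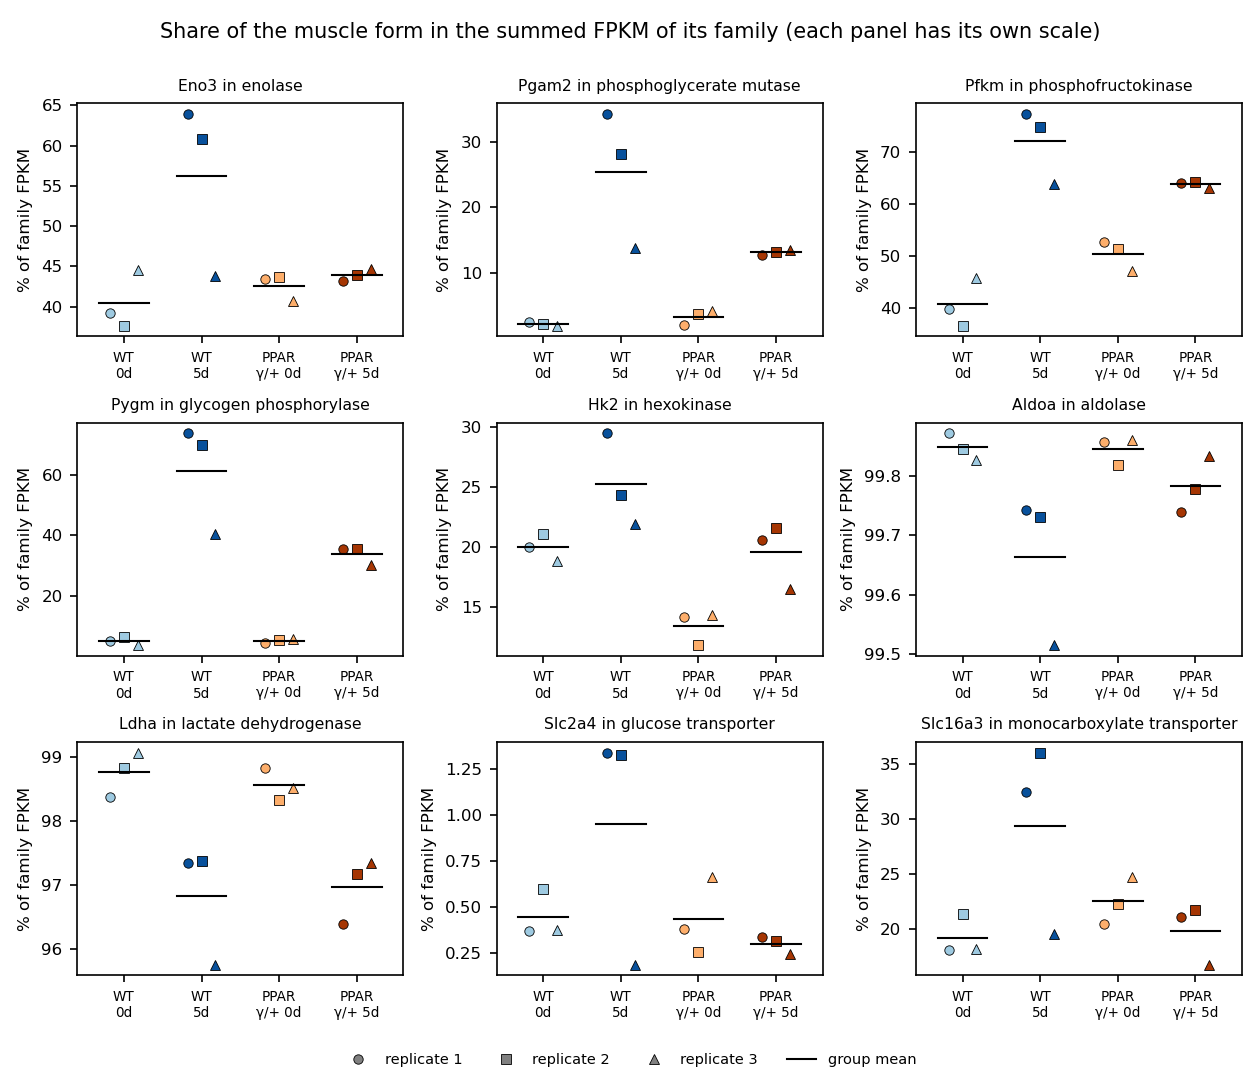
Share of the muscle form in the summed FPKM of its family (y axis, percent, each panel on its own scale) in the 4 groups for 9 families; symbols are the 3 replicates and lines the group means. The *Pygm* share lies at 6.34% or less on 0d and between 30.0% and 73.9% on 5d, while the *Ldha* and *Aldoa* shares stay above 95%.

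The interaction of cell type and day tested whether the change over 5 days differed between the cell types, at a limma adjusted p of at most 0.05 over all genes. The muscle isozymes had the lower log2 change in PPARγ/+ for 9 of 12, with a median difference of -0.56 on the log2 scale, against 0.12 for ubiquitous isozymes and -0.01 for all genes, but only 1 member passed, *Gyg*. This was 0 higher and 1 lower of the members, 2.94%, against 0.583% and 0.178% of all genes. *Gyg* had log2 changes of 0.24 ± 0.10 in WT and -0.47 ± 0.07 in PPARγ/+, a difference of -0.71 ± 0.12 (adjusted p = 0.0280). This call was lost in 8 of the 12 fits that leave out 1 library, with adjusted p-values up to 0.092. The largest difference among the members was that of *Pgam2*, -1.91 ± 0.51 with an adjusted p of 0.140 in limma. It was -1.56 ± 0.54 for *Pygm* (adjusted p = 0.261), -0.93 ± 0.35 for *Pfkm* (0.313) and -0.85 ± 0.27 for *Slc16a3* (0.221), none past the threshold.

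Without WT_5d replicate 3 the interaction was called for 9 members, 1 higher and 8 lower, or 2.94% and 23.5%, against 1.4% and 1.52% of all genes. Higher was *Hk1*, and lower were *Gpi1*, *Pfkm*, *Pgam2*, *Eno3*, *Pygm*, *Gys1*, *Gyg* and *Slc16a3*, 6 of them muscle isozymes. The difference was then -2.43 ± 0.27 for *Pgam2* (adjusted p = 0.00249 in limma), -2.12 ± 0.28 for *Pygm* (0.00517), -1.32 ± 0.14 for *Pfkm* (0.00199) and -1.05 ± 0.12 for *Gys1* (0.00249). That library also holds the lowest summed myotube markers of its group, and the part of this in the result was not tested. It was singled out partly for its low muscle isozymes, so calls made without it are no independent support.

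On 5d PPARγ/+ cells were compared with WT cells directly, where a call needed an adjusted p of at most 0.05 in limma and a 2-fold difference. No member was called in either direction, as against 0.0943% of all genes called higher and 0.061% lower. At an unadjusted p of at most 0.05 and any fold 15 of the 34 tested members passed, and so did 2281 of the 18023 genes. With a 2-fold difference as well 3 members passed, of which *Phkg1* was higher and *Pgam2* and *Pygm* lower. The share of all genes under that last rule is not given here. Of the 12 muscle isozymes 11 had a negative difference, as had 12 of 14 ubiquitous isozymes and 7 of 8 single-form enzymes. Of the 18023 genes tested 8130 did. In 16 of the 34 tested members, 47.1%, all 3 PPARγ/+ libraries lay below all 3 WT libraries, which was so for 8.31% of all genes. They lay above in 1 member, *Phkg1*, 2.94%, against 10.2% of all genes. The 16 were *Hk2*, *Pfkm*, *Pgam2*, *Eno3*, *Pygm* and *Slc16a3* of the muscle isozymes, *Pfkl*, *Pfkfb3*, *Aldoc*, *Pgam1*, *Eno1* and *Slc16a1* of the ubiquitous ones, and *Gpi1*, *Pkm*, *Gyg* and *Gbe1*.

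As a class the muscle forms differed most, with a median of -0.69 over 12 muscle isozymes, -0.21 over 14 ubiquitous isozymes, -0.26 over 8 single-form enzymes and 0.02 over all genes. *Pygm* was 2.998-fold lower (-1.58 ± 0.47, adjusted p = 0.281 in limma) and *Pgam2* 2.52-fold lower (-1.33 ± 0.44, adjusted p = 0.318). *Eno3* differed by -0.99 ± 0.33, *Slc16a3* by -0.91 ± 0.21 and *Pfkm* by -0.81 ± 0.32, with adjusted p-values of 0.326, 0.192 and 0.385 in limma. The brain form *Aldoc* differed by -0.83 ± 0.20 (adjusted p = 0.202 in limma). Among the muscle isozymes, *Ldha* and *Phka1* differed by only -0.22 and -0.06, and *Phkg1* was higher by 1.02. The muscle isozymes together summed to 964, 862 and 519.6 FPKM in the WT_5d libraries and 491, 518 and 520.3 FPKM in PPARγ/+_5d, and on 0d to 630.5, 683 and 747 FPKM in WT and 627, 565 and 559 FPKM in PPARγ/+. All 36 members summed to 2706, 2517 and 1984 FPKM in WT_5d and 1796, 1892 and 1904 FPKM in PPARγ/+_5d. In both sums WT_5d replicate 3 was the lowest WT_5d library, and for the muscle isozymes it lay inside the PPARγ/+_5d range. Myotube markers were lower on 5d too, since all 14 tested had a lower mean in PPARγ/+, with a median of -1.90. On 0d all 14 were also lower, with a median of -1.24. The muscle isozymes did not follow them on 0d, with a median of -0.04 and 5 of 12 positive. At an unadjusted p of at most 0.05 in limma 9 of the 14 markers passed on 5d and 3 on 0d, with lowest adjusted p-values of 0.104 and 0.154. Of the 18023 genes tested 2281 and 3904 passed that rule. On 0d WT_0d replicate 2 held the highest marker sum, and PPARγ/+_0d replicate 3 lay above the other WT_0d libraries. The part of the myotube markers in the differences of the isozymes was not tested.

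Without WT_5d replicate 3, 8 members were called on 5d, 1 higher and 7 lower, or 2.94% and 20.6%, against 1.19% and 2.82% of all genes. Higher was *Phkg1*, at 1.12 ± 0.19. Lower were *Pygm* at -2.14 ± 0.16, *Pgam2* at -1.86 ± 0.13, *Eno3* at -1.38 ± 0.07, *Slc2a4* at -1.21 ± 0.17, *Pfkm* at -1.20 ± 0.07, *Slc16a3* at -1.10 ± 0.17 and *Gys1* at -1.02 ± 0.10. All 8 are muscle isozymes, and the *Slc2a4* value rests on 4, 4 and 3 fragments in the PPARγ/+_5d libraries. All PPARγ/+ libraries then lay below both WT libraries in 24 members, 70.6%, and above them in 2, 5.88%, where 19.2% and 27.6% of all genes did so. WT_5d replicate 3 was the lowest WT_5d library for 10 of 12 tested muscle isozymes, so leaving it out favours such calls. With all libraries no member was called, and the calls made without it are no independent support. The 3 libraries per group and the distance of 1 of them from the others set the precision of every 5d comparison.

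**Figure D4:**
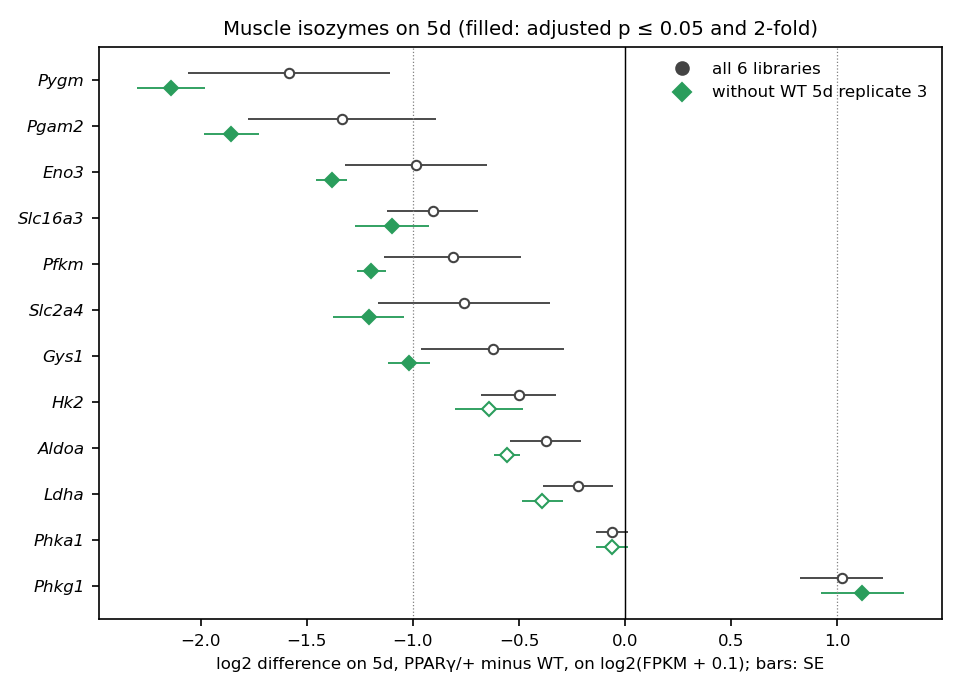
Log2 difference between PPARγ/+ and WT on 5d (x axis, on log2(FPKM + 0.1), bars SE) of the 12 tested muscle isozymes (y axis), with all 6 libraries (circles) and without WT_5d replicate 3 (diamonds); filled symbols passed an adjusted p ≤ 0.05 and 2-fold. With all libraries no symbol is filled, and without that library 8 are, 7 of them below 0.

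The shares of the muscle forms on 5d gave a like order. PPARγ/+ libraries lay all below WT libraries in 3 of 9 families, *Pygm* at 33.6% ± 3.19 against 61.4% ± 18.3 (SD, n = 3 each), *Pgam2* at 13.1% ± 0.413 against 25.4% ± 10.6 (SD, n = 3 each) and *Hk2* at 19.6% ± 2.70 against 25.2% ± 3.86 (SD, n = 3 each), each with p = 0.1 in the exact two-sided permutation test and 0.3 after adjustment over the 9 families. The lowest WT_5d share of *Pgam2*, 13.7%, lay only just above the highest PPARγ/+_5d share, 13.5%. Without WT_5d replicate 3 the shares lay apart in 7 families, all but those of *Aldoa* and *Ldha*.

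On 0d the muscle hexokinase was lower in PPARγ/+ cells. *Hk2* was 2.09-fold lower in PPARγ/+ (-1.06 ± 0.10, adjusted p = 0.0121 in limma), the only member called, which is 0 higher and 1 lower against 0.361% and 1.23% of all genes. This call was lost without WT_0d replicate 2, the library with the highest myotube markers of its day (adjusted p = 0.0530 in limma), and without PPARγ/+_0d replicate 2, where the difference was -0.97. Without the fold limit 4 members were lower, 11.8%, and 0 higher, against 2.46% and 1.28% of all genes. The other 3 were *Hk1* at -0.39 ± 0.05 (adjusted p = 0.0212), *Pfkp* at -0.55 ± 0.08 (0.0266) and *Aldoa* at -0.29 ± 0.05 (0.0487). In 10 members, 29.4%, all PPARγ/+_0d libraries lay below all WT_0d libraries, and in 3, 8.82%, above, where 13.1% and 13.7% of all genes did so. The 3 above were *Pgam2*, *Phkg1* and *Gyg*. The *Pygm* groups overlapped on 0d, with a difference of -0.02 ± 0.23.

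Other genes of the same pathways were described from lists, which were chosen with earlier results of these data known. Of 17 further glycolytic genes 8 could be tested, and 1 was called in WT, *Gpd2*, the mitochondrial glycerol phosphate dehydrogenase that passes glycolytic electrons to the respiratory chain. *Gpd2* was measured at 13.2, 13.6 and 13.03 FPKM in the WT_0d libraries, 4.09, 3.58 and 4.62 FPKM in WT_5d, 7.23, 7.27 and 8.04 FPKM in PPARγ/+_0d and 3.99, 4.01 and 3.99 FPKM in PPARγ/+_5d. It was lower on 5d in both cell types, with log2 changes of -1.68 ± 0.11 in WT and -0.89 ± 0.07 in PPARγ/+, and the difference between these of 0.79 ± 0.13 passed the interaction test (adjusted p = 0.0208 in limma). The 5d levels overlapped, and on 0d every PPARγ/+ library lay below every WT library.

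Of 22 further glycogen genes 18 were tested, and 2 were called higher and 1 lower in WT and 1 higher in PPARγ/+. The counts of this and the other lists are descriptions, beside 8.94% of all genes called higher and 7.53% lower in WT and 9.11% and 6.06% in PPARγ/+. *Ppp1r3c*, which targets protein phosphatase to glycogen, was called in both, by 2.25 ± 0.58 and 2.69 ± 0.19 on the log2 scale, and *Epm2a*, the glycogen phosphatase laforin, in WT by 1.31 ± 0.22. *Pgm2l1* was called lower in WT, with a log2 change of -1.12 ± 0.24. Of 21 further sugar and monocarboxylate carriers 15 were tested, with 3 higher and 1 lower in WT and 4 higher and 1 lower in PPARγ/+. *Slc2a6* was the carrier that rose most, by 3.33 ± 0.46 and 2.09 ± 0.17, followed by *Txnip*, a restraint on glucose uptake, at 1.14 ± 0.25 and 1.69 ± 0.25. *Slc2a9*, a urate carrier, was lower, with changes of -1.12 ± 0.29 and -1.12 ± 0.24.

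In pyruvate oxidation 3 of 13 genes tested were higher in WT and 2 in PPARγ/+, with 0 called lower, beside 8.94% and 9.11% of all genes called higher. Pyruvate carboxylase *Pcx* was measured at 6.13, 6.73 and 6.73 FPKM in the WT_0d libraries, 16.4, 19.7 and 21.8 FPKM in WT_5d, 9.64, 8.92 and 8.72 FPKM in PPARγ/+_0d and 18.05, 19.3 and 20.4 FPKM in PPARγ/+_5d, with log2 changes of 1.54 ± 0.12 and 1.08 ± 0.07. *Pdk2*, a kinase that slows pyruvate dehydrogenase, was higher by 1.53 ± 0.12 and 1.21 ± 0.18, and WT_5d replicate 3 was the highest WT_5d library for both genes. In the pentose phosphate pathway 2 of 8 genes were called lower in WT and 0 in PPARγ/+, where 6 of 8 were lower at an unadjusted p of at most 0.05 in limma. Of all genes 7.53% were called lower in WT, and 32.7% were lower without the fold limit in PPARγ/+. *G6pdx*, its first enzyme, had log2 changes of -1.51 ± 0.20 and -0.84 ± 0.09 and *Pgd* of -1.21 ± 0.17 and -0.82 ± 0.12. No gene of these lists was called between the cell types on 5d, and apart from *Gpd2* none was called in the interaction.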

How the data were processed

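RNA of C2C12 cells was sequenced in 12 libraries, 3 in each of 4 groups taken from the labels. By the study's methods, Trim Galore was used for trimming, STAR for alignment and HTSeq for counts per Ensembl gene. The methods name GRCm38, whereas the submitters' processing notes name mm9, and the gene identifiers and lengths of GRCm38 are used here. The values the authors deposited are FPKM, and a second deposited table holds log2(FPKM + 1) of the same values, with a largest difference of 5.329e-14. Values gave whole fragments (within 0.001) for 21058 of 27138 detected genes with the annotated length and for 6079 with a length inferred from the values. These fragments serve only to state depth.

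Here log2(FPKM + 0.1) of 18023 genes with at least 0.1 FPKM in at least 3 libraries was tested with limma 3.58.1 (trend) in R 4.3.3. Each 2-group comparison used its own 6 libraries and the interaction all 12, with Benjamini-Hochberg adjustment over all genes. The study's own test was a model of read counts, and here limma was run on the deposited FPKM. Calls within a cell type kept the study's cutoffs, an unadjusted p and a 2-fold limit, whereas calls between cell types used the adjusted p and the interaction had no fold limit. The threshold was 0.05. Isozyme shares were compared by exact permutation in scipy 1.17.1, and similar genes were found with BLAST 2.17.0. Values in every library are given for members called between cell types or in the interaction, both forms of each family and the 5 largest changes in each cell type. The members and lists were chosen with earlier results of these data known. Counting error and the spread of 3 libraries limit the precision. Alternatives covered pseudocount, filter, scaling, weights, blocking, fold limit and each library left out.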

Additional observations from a re-analysis of the deposited data

Results flagged for a closer look

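The difference between the cell types in the change from 0d to 5d passed the interaction test for 1 member, glycogenin *Gyg*, at -0.71 on the log2 scale (limma adjusted p = 0.0280, 12 libraries). For the related gene *Gpd2*, mitochondrial glycerol phosphate dehydrogenase, the same difference was 0.79 (adjusted p = 0.0208). The *Gyg* libraries of the cell types lay apart in opposite order on 0d and 5d, while those of *Gpd2* lay apart on 0d and overlapped on 5d. The *Gyg* call was lost in most fits that leave out 1 library. On single days *Gyg* did not pass between the cell types, with adjusted p-values in limma of 0.0780 on 0d and 0.143 on 5d.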

How the results depend on the processing

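With 6 members called in each cell type over time, a pseudocount of 1 gave 3 in WT and 3 in PPARγ/+, and no fold limit gave 24 and 26. The single member of the interaction, *Gyg*, became 10 members with array weights, 13 at an unadjusted p and 0 with the replicate block. At that unadjusted p 2164 of the 18023 genes tested passed the interaction, so the looser rule raised counts beyond the members. Counts with array weights are of members only, without the share of all genes beside them. On 5d the count of 0 became 6 with array weights, 1 with all 12 libraries in one fit and 3 at an unadjusted p. On 0d the count of 1, *Hk2*, became 0 with a pseudocount of 1, 0 with the replicate block and 4 without the fold limit. The deviations of 18 same-number pairs correlated at -0.068 to 0.083, so these values show no pairing by replicate number. They cannot tell whether libraries of the same number were cultured or processed together, which the sources used here do not say.

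Leaving out 1 library in turn gave 6 to 7 members in WT, 5 to 7 in PPARγ/+, 0 to 9 in the interaction, 0 to 8 on 5d and 0 to 1 on 0d. The highest counts for the interaction and for 5d both came without WT_5d replicate 3. The *Gyg* call was lost without WT_0d replicate 2 or 3, WT_5d replicate 2, PPARγ/+_0d replicate 1 or 2 or any 1 PPARγ/+_5d library, and the *Hk2* call without WT_0d replicate 2 or PPARγ/+_0d replicate 2. The families with a larger muscle share numbered 4 to 7 in WT and 4 to 5 in PPARγ/+, and those with a smaller share in PPARγ/+ on 5d 3 to 7. Of the values of single named members under the alternatives, 214 kept their side of the threshold, 24 lost it and 0 changed direction. Scaling by median ratios moved the share of called genes that were higher from 54.3% to 62.7% in WT and from 60.04% to 67.9% in PPARγ/+, and the median change over all genes from -0.08 and -0.10 to 0.02 and 0.02. A pseudocount of 1 lowered the number of all genes called from 2970 to 1441 in WT and from 2735 to 1241 in PPARγ/+. Values of *Slc2a4* and *Phkg1* rest on under 70 fragments in any library. With a pseudocount of 1 the calls of *Pfkfb1*, *Aldoc*, *Slc2a3*, *Phkg1* and *Hk2* ended below 2-fold.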
